A study of Mus musculus with 9 samples.

Results

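Balb/c-3T3 cells that stably express STAT3-C were compared with control Balb/c-3T3 cells across the whole array. The comparison took the 3 arrays titled for STAT3-C and the 3 titled for the Balb control, which are 6 of the 9 arrays of the series. The other 3 arrays, of Balb/c-3T3 cells with v-Src, a viral kinase that is always active, served only for a direct comparison of both transfected lines. All 45037 probesets apart from the controls printed by the manufacturer were tested, and 18193 genes were read at 1 probeset each. The control cells carried no added gene, and the STAT3-C cells carried a plasmid that drives STAT3-C from the cytomegalovirus promoter. Per the methods, each array received RNA pooled from 5 dishes of 1 passage, and the arrays of a line are successive passages of 1 stable line. The p-values therefore measure the spread between passages, not between independently derived lines. No line with an empty vector was among these arrays, so STAT3-C itself, the transfection and selection, and the history of the line cannot be told apart.

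STAT3 (signal transducer and activator of transcription 3) is a transcription factor that waits in the cytoplasm, is phosphorylated on a tyrosine by kinases at cytokine receptors or by Src, and then binds DNA as a dimer. It is best known for carrying interleukin-6 signals, for acute-phase genes, and for a role in cell survival, wound repair and tumors. STAT3-C is an altered form whose molecules join through added cysteines and so act without the upstream signal. Balb/c-3T3 cells are immortalized mouse fibroblasts, and fibroblasts are the cells that lay down and remodel collagen and the rest of the connective tissue matrix.

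Levels are Robust Multichip Average (RMA) values on the log2 scale, where a difference of 1 is a 2-fold difference. A call of higher or lower needed both a limma p under 0.05 after Benjamini-Hochberg adjustment and a 1.5-fold difference or more. Probesets for olfactory and vomeronasal receptors, which fibroblasts are not known to use, gave a background level: of 80 such probesets, 95% had a mean under 7.18, and 3 were called. A group mean under 7.18 is named near background below, and a fold change from or to such a level is limited by it. The array medians lay between 6.27 and 6.39 over the 6 arrays. Replicates of a line correlated at 0.990 to 0.995 (Pearson, across probesets), and STAT3-C with control arrays at 0.944 to 0.948. With 3 arrays a line, an exact permutation test cannot give a p below 0.1, so each p comes from limma. Among the controls, replicate 2 had the lowest level in 51 of 57 cell cycle genes and replicate 1 the lowest in 44 of 49 interferon-stimulated genes.

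The level of Stat3 itself was checked first. Of its 4 probesets, 1 was called: 1460700_at read 8.93, 8.92 and 8.99 in control cells and 9.85, 9.86 and 9.30 in STAT3-C cells. The groups do not overlap, and STAT3-C replicate 3 stood closest to the control arrays. The log2 difference was 0.72 (standard error 0.15, adjusted p = 0.00827). The other 3 probesets differed by 0.11 to 0.24, with standard errors of 0.11 to 0.15, and were not called. Of these, 1424272_at and 1459961_a_at were near background in both lines. The third, 1426587_a_at, had means of 9.17 in control and 9.40 in STAT3-C cells. Whether the probes of these 4 probesets lie within the introduced sequence is not known here, so they say little on how much STAT3-C the cells made.

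Over the array, 4358 probesets (9.68%) were higher and 3865 (8.58%) lower in STAT3-C than in control cells. At 1 probeset a gene, 2167 genes (11.9%) were higher and 1891 (10.4%) lower. The median difference over all 18193 genes was 0.04, so neither direction prevailed by much. A change of at least 10-fold was found for 58 higher and 68 lower genes. The arrays of the 2 lines did not overlap in 48.5% of all genes, and in 4037 of the 4058 called. By the background level, 39 genes were switched on, which means under 7.18 in all 3 control arrays and at least 2 above it in all 3 STAT3-C arrays, and 35 genes were switched off.

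The highest change belonged to Aqp5, the water channel aquaporin-5 of glands and airways. It read 5.29, 5.60 and 5.51 in control and 11.96, 11.87 and 11.86 in STAT3-C cells, a log2 difference of 6.43 (standard error 0.11, adjusted p = 6.02e-08). Slurp1, a small secreted protein of the Ly6 family made by epithelia, rose from 7.28, 7.10 and 7.03 to 12.75, 13.03 and 12.94, a difference of 5.77 (standard error 0.11). Both genes were tightly grouped within each line, with no overlap. Pmaip1, which encodes the death-promoting BH3 protein Noxa, rose by 5.67 (standard error 0.14) from levels of 3.79, 4.08 and 4.06. Vldlr, a receptor for lipoproteins and reelin, rose by 5.43 (standard error 0.10). Fabp4, the fatty acid carrier of fat cells, rose by 5.28 (standard error 0.30), and Afp, the fetal serum protein alpha-fetoprotein, by 4.94 (standard error 0.25). Msln, which encodes the surface protein mesothelin, rose by 4.93 (standard error 0.18). Mtss1, which encodes a protein that bends membranes and binds actin, rose by 5.43 (standard error 0.20) and Bst1, a surface enzyme that makes cyclic ADP-ribose, by 5.68 (standard error 0.21).

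The lowest change belonged to Cdh11, which encodes cadherin-11, the adhesion molecule of mesenchymal cells. It read 12.06, 11.70 and 11.85 in control and 4.36, 4.33 and 4.13 in STAT3-C cells, a fall of at least the 7.60 measured (standard error 0.12, adjusted p = 5.74e-08), since the STAT3-C level is near background. Several other leading genes encode secreted proteins of the matrix or acting in it: Mmp3, Sfrp2, Vcan, Postn, Dpt and Tnc each fell by over 5 log2 units. Mycn is of another kind, the MYC-type regulator that drives growth in embryonic tissue. It read 14.19, 14.15 and 14.08 in control and 7.48, 7.58 and 8.20 in STAT3-C cells, a difference of -6.39 (standard error 0.18, adjusted p = 3.79e-07). The STAT3-C mean of Mycn stayed above background, while its control levels lay close to the highest level of any probeset on those arrays (14.33, 14.32 and 14.44). Brinp3 (-5.39, standard error 0.15) and Rpl39l, a relative of the ribosomal protein L39 gene (-5.31, standard error 0.09), read near background in all 3 STAT3-C arrays.

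**Figure D1:**
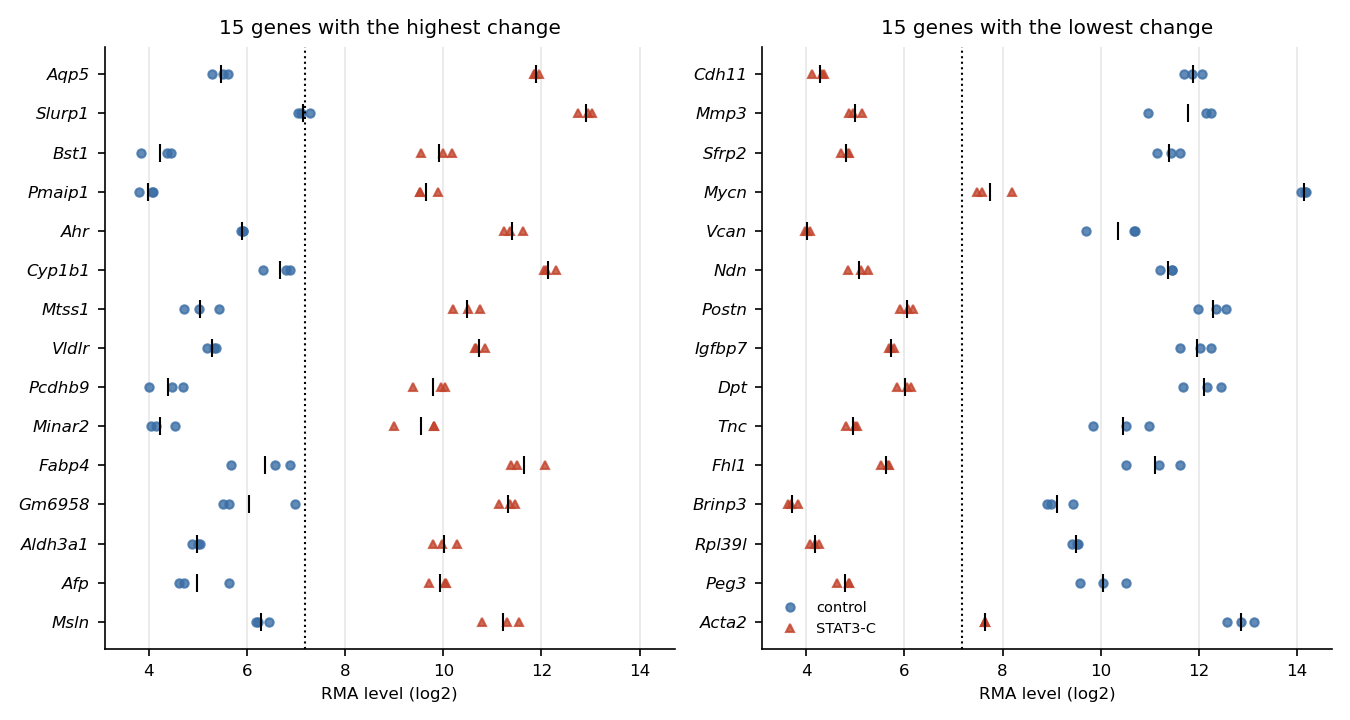
RMA level on the log2 scale (x axis) of the 15 most raised (left) and the 15 most lowered genes (right) in STAT3-C against control cells; circles are the 3 control arrays, triangles the 3 STAT3-C arrays, black ticks the group means and the dotted line the background level of 7.18. In all 30 genes the 3 arrays of a line lie together and the lines do not overlap, and Mycn and Acta2 are the 2 falling genes whose STAT3-C mean stays above the dotted line. The genes were picked for the size of their change, and 48.5% of all genes do not overlap either.

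Gene lists give a broader view. The 52 lists held 1685 measured genes, of which 635 (37.7%) were called. Over the array 4058 of 18193 genes were called, and 2654 of the 8473 genes above background in both lines. The lists were drawn up with earlier results of these data known and are therefore described by counts and medians, with no test. Lower calls led in the interferon-stimulated genes, fibroblast markers, Hox genes and matrix glycoproteins. Higher calls led in the hypoxia and glycolysis genes, the aryl hydrocarbon receptor list, the circadian clock and the S100 and Ly6 list.

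**Figure D2:**
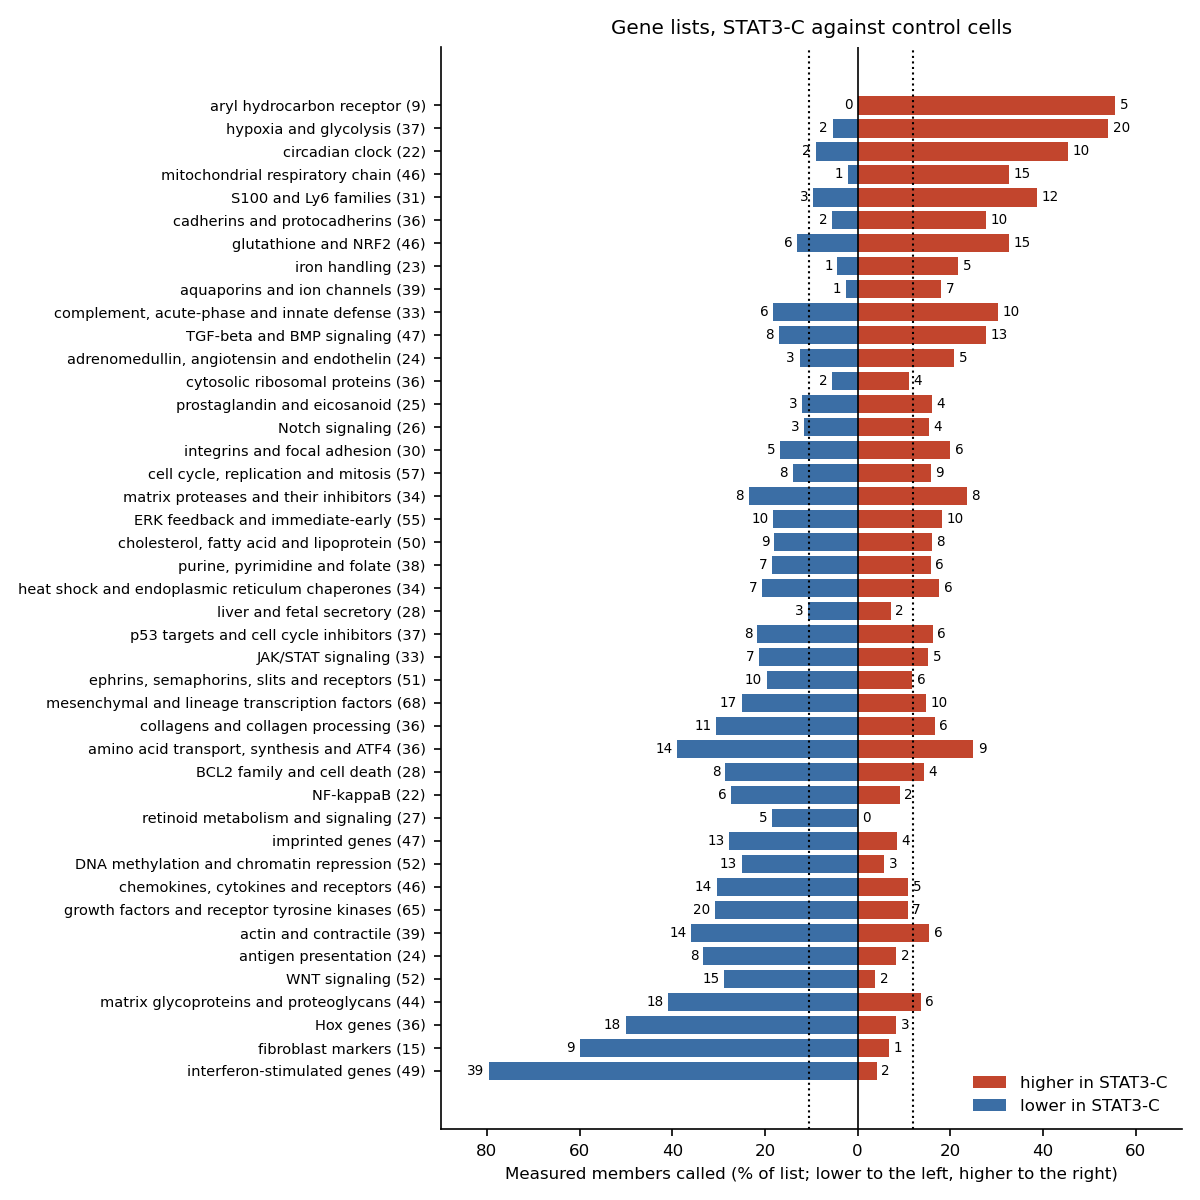
Share of each list's measured members (x axis, %; number measured in brackets) called higher (red, to the right) or lower (blue, to the left) in STAT3-C than in control cells, with the counts at the bar ends; dotted lines mark the shares over all genes, 11.9% higher and 10.4% lower, and only lists with at least 5 called members are drawn. The interferon-stimulated genes reach furthest to the left, with 39 of 49 lower, and the aryl hydrocarbon receptor (5 of 9) and hypoxia and glycolysis lists (20 of 37) furthest to the right.

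Interferon-stimulated genes are the antiviral genes that cells switch on when type I or type II interferon reaches its receptor. Of 49 measured, 39 fell and 2 rose in STAT3-C cells, and the median difference was -1.80. The strongest fall was that of Ifit1, which encodes a protein that binds foreign RNA: it read 11.28, 12.67 and 12.12 in control and 7.59, 6.50 and 6.64 in STAT3-C cells, a difference of -5.11 (standard error 0.38, adjusted p = 4.9e-05). Usp18, a brake on the interferon receptor, fell by 4.51 (standard error 0.30), the RNA sensor Ifih1 by 4.26 (standard error 0.22) and Oasl2, of the 2'-5' oligoadenylate synthetase family, by 4.13 (standard error 0.27). In each of these genes every STAT3-C array lay below every control array. Irf7, the transcription factor that amplifies the interferon response, fell by 4.10 (standard error 0.25), from 10.99, 11.83 and 11.27 to 7.49, 6.82 and 7.47. Irf9 and Stat2, transcription factors of the type I interferon signal, fell by 1.61 (standard error 0.18) and 2.53 (standard error 0.21).

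The 2 members that rose were the receptor chains themselves. Ifnar1 rose by 0.77 (standard error 0.13, adjusted p = 0.00264) and Ifnar2 by 0.68 (standard error 0.11, adjusted p = 0.00188), while the interferon-gamma receptor chain Ifngr1 fell by 1.54 (standard error 0.11). Irf1, another factor of the pathway, differed by -0.02 (standard error 0.13) and was not called. The level of interferon-induced genes varied between the control passages. Cxcl11, a chemokine of this kind outside the list, read 8.99, 12.05 and 10.51 in control cells against 6.11, 5.99 and 6.30 in STAT3-C cells, and Mx1, an antiviral GTPase of the list, read 7.04, 9.80 and 8.70 against 4.79, 4.88 and 4.89. In both genes all STAT3-C arrays lay below the lowest control array. Leaving out any 1 of the 6 arrays left 36 to 40 members lower.

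The interferon-stimulated response element has the core GAAANNGAAA, which was searched on both strands in the 250 bases before the start of each gene in the RefSeq promoters of GRCm38.p6. It stood in 3.13% of the promoters of 14452 array genes, and in 12 of the 36 interferon-stimulated genes with a promoter, 11 of them among the 28 of these that fell. The stretches below, from genes that fell, show it in capitals.

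Ifit1, chr19:34640765-34640833, plus strand: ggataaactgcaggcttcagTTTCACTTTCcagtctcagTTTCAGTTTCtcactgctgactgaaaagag
Ifit3, chr19:34583353-34583436, plus strand: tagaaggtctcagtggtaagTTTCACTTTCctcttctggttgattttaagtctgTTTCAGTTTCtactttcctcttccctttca
Bst2, chr8:71537567-71537622, minus strand: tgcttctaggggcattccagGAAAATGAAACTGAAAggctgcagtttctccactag

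In Ifit1 and Ifit3 the element appears as its reverse complement, 2 times in each, and in Bst2 as 2 overlapping copies. Ifit3 fell by 4.01 (standard error 0.28) and Bst2, the membrane tether that holds budding virus, by 2.86 (standard error 0.20). The match describes the sequence and does not show that a factor bound there. The STAT site TTCNNNGAA, searched the same way, stood in 7.42% of all promoters, in 120 of the 1715 promoters of genes called higher and in 109 of the 1548 of genes called lower. It stood in 12 of the 36 promoters of interferon-stimulated genes, 8 of the 28 called lower and 3 of the 6 not called.

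**Figure D3:**
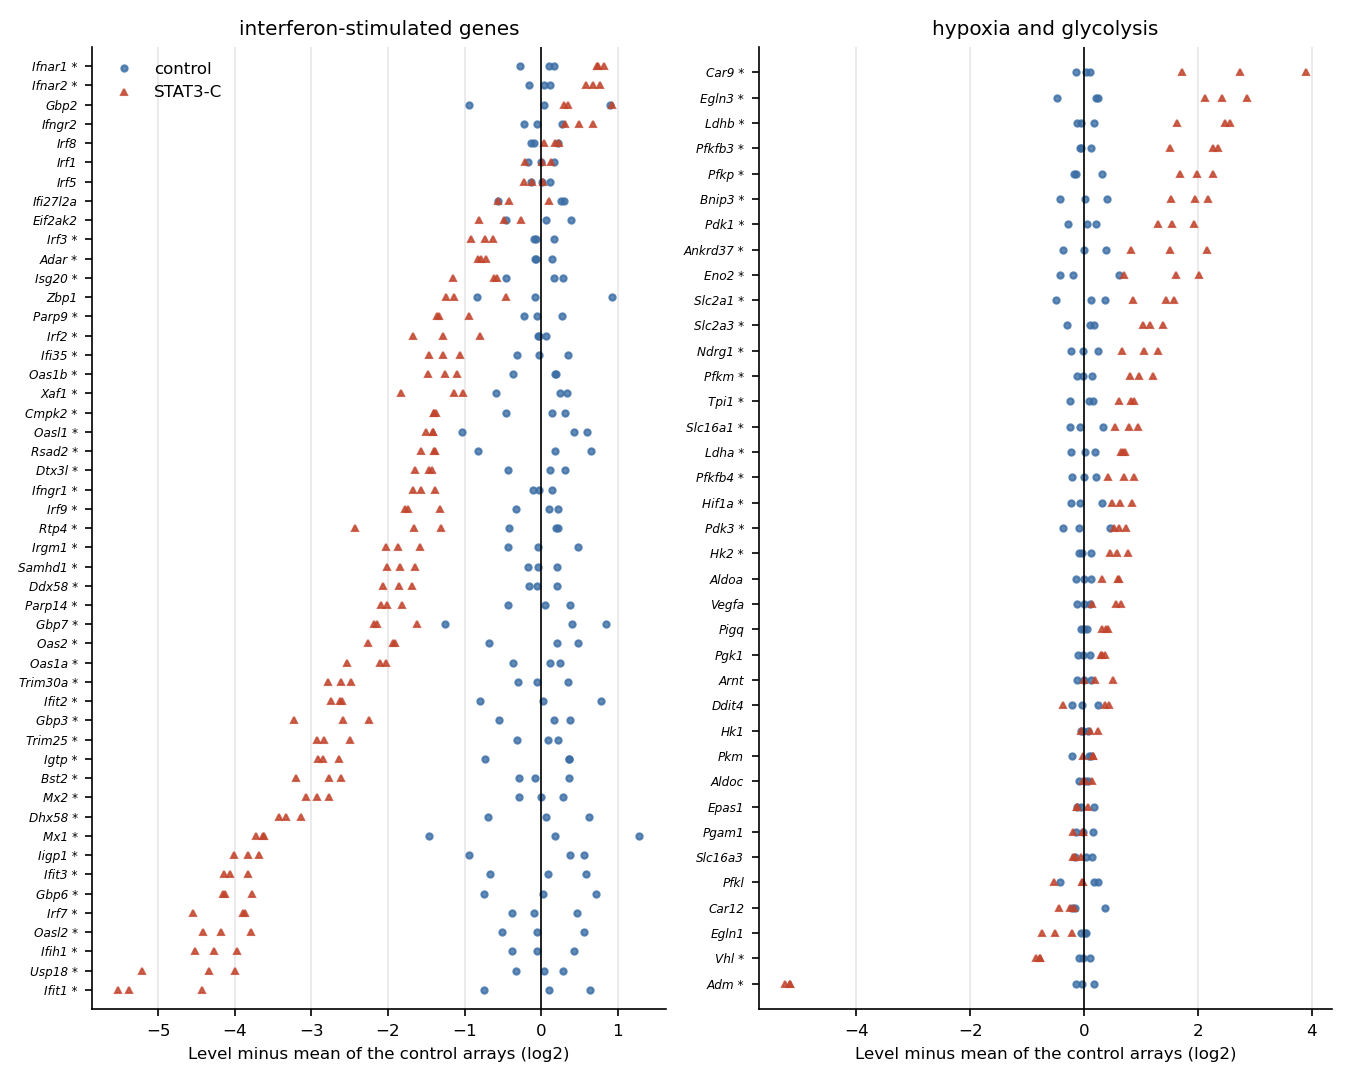
Level of each member of the interferon-stimulated list (left) and the hypoxia and glycolysis list (right), given as the log2 difference from the mean of the 3 control arrays (x axis); circles are control arrays, triangles STAT3-C arrays, and an asterisk marks a called gene. On the left 39 genes lie lower and 2 higher in STAT3-C cells; on the right 20 lie higher and 2 lower, with Adm far below the rest.

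Other immune genes fell more often than they rose. Antigen presentation genes, which load peptides onto class I molecules, had 8 of 24 lower and 2 higher. H2-D1 read 12.48, 13.15 and 12.52 in control and 9.88, 9.90 and 9.73 in STAT3-C cells (-2.88, standard error 0.18), and H2-K1 fell by 2.45 (standard error 0.12). The immunoproteasome subunits Psmb8 and Psmb9 fell by 2.39 (standard error 0.26) and 2.13 (standard error 0.37). H2-D1 and H2-K1 belong to a family of near-identical genes, and their probesets may read relatives. Of 46 chemokines, cytokines and receptors, 14 fell and 5 rose. Cxcl12, which retains blood-forming and immune cells in tissue, fell by 3.39 (standard error 0.22) and the monocyte attractant Ccl7 fell by 2.61 (standard error 0.20). Il7, a survival factor of lymphocytes, fell by 2.71 (standard error 0.22). Ccl5 fell by 2.06 (standard error 0.48, adjusted p = 0.0128), a call that was lost without STAT3-C replicate 1 (adjusted p = 0.0503) or control replicate 3 (adjusted p = 0.0579). Of 22 NF-kappaB genes, 6 fell and 2 rose, with the adhesion molecule Vcam1 (-3.16, standard error 0.14) first. Among 28 genes of the BCL2 family and cell death, 8 fell and 4 rose. The necroptosis pair Mlkl (8.46, 10.05 and 9.60 in control against 4.44, 4.35 and 4.43 in STAT3-C cells) and Ripk3 fell by 4.96 (standard error 0.34) and 2.64 (standard error 0.14).

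Acute-phase and innate defense genes went in both directions, with 10 of 33 higher and 6 lower. Lbp, the serum protein that binds bacterial lipopolysaccharide, read 5.84, 5.61 and 5.59 in control and 10.81, 11.24 and 9.64 in STAT3-C cells, a difference of 4.89 (standard error 0.35). Hp, which encodes haptoglobin, the plasma protein that captures free hemoglobin, read 6.03, 6.24 and 6.41 against 10.34, 9.99 and 8.36 (3.34, standard error 0.44), and Cd14 rose by 2.12 (standard error 0.21). In all 3 genes STAT3-C replicate 3 was the lowest of its line, as it was for Stat3 probeset 1460700_at, though each stayed above every control array. Over the whole list that array was the lowest of its line in 16 of 33 genes and the highest in 12. Saa3, an inflammatory serum amyloid made outside the liver, went the other way and fell by 2.61 (standard error 0.34). The iron-binding defense protein Lcn2 rose by 1.56 (standard error 0.50, adjusted p = 0.0477), and that call was lost when either of STAT3-C replicates 1 and 2 or control replicates 1 and 2 was left out (adjusted p between 0.0566 and 0.171). The JAK/STAT list had 5 of 33 higher and 7 lower. Socs3, the feedback inhibitor induced by STAT3, rose by 1.43 (standard error 0.25, adjusted p = 0.00373), and Il6st, the shared receptor chain of the interleukin-6 family, differed by -0.25 (standard error 0.16) and was not called. Pias2, an inhibitor of STAT proteins, fell by 3.60 (standard error 0.17), the leukemia inhibitory factor receptor Lifr fell by 2.70 (standard error 0.17) and the kinase Jak2 fell by 1.81 (standard error 0.12).

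Among matrix genes, more fell than rose in the glycoproteins and collagens, and the proteases and inhibitors were evenly divided. Of 44 matrix glycoproteins and proteoglycans, 18 fell and 6 rose, with a median of -0.41. Postn (periostin) read 11.99, 12.35 and 12.55 in control and 6.08, 6.17 and 5.91 in STAT3-C cells, a difference of -6.25 (standard error 0.15). Vcan, the large proteoglycan versican, fell by 6.34 (standard error 0.25), Dpt, which encodes the collagen-binding dermatopontin, by 6.08 (standard error 0.19) and Tnc (tenascin-C) by 5.50 (standard error 0.25). These ended near background in all 3 STAT3-C arrays, so the sizes are lower bounds. Of 36 genes of collagens and their processing, 11 fell and 6 rose. Col6a3, a chain of the beaded filament collagen VI, fell from 11.34, 11.10 and 11.61 to 8.49, 8.63 and 8.71 (-2.74, standard error 0.14), and Col1a1, the main chain of fibrous collagen, fell by 1.86 (standard error 0.10). Col3a1, of the same fibers, differed by -0.38 (standard error 0.19) and was not called. Pcolce2, an enhancer of procollagen processing, was switched on instead, from 4.77, 4.72 and 4.56 to 9.33, 9.45 and 10.00. Among 34 matrix proteases and inhibitors, 8 rose and 8 fell. Mmp3 and Mmp13, which cut matrix, fell by 6.80 (standard error 0.31) and 4.07 (standard error 0.32), whereas the inhibitors Slpi (4.44, standard error 0.21) and Timp3 (3.01, standard error 0.22) rose.

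The labelled cell type was checked by its markers. Of 15 fibroblast markers, 9 fell and 1 rose, with a median of -1.34. Thy1, a surface protein of fibroblasts, read 10.92, 10.40 and 11.25 in control and 5.79, 5.55 and 5.68 in STAT3-C cells, and Lum (lumican) and Dcn (decorin), small proteoglycans that space collagen fibrils, fell by 3.51 (standard error 0.24) and 2.24 (standard error 0.14). Vim and Pdgfra, picked after their values were seen, stayed above background. Vim, the filament protein of mesenchymal cells, read 13.15, 13.03 and 13.32 in STAT3-C cells and was not called. Pdgfra read 10.77, 11.04 and 10.50 after a fall of 1.34 (standard error 0.14). Of the 15 markers, 6 were near background in STAT3-C cells, Thy1, Dpt and Lum among them, and 3 were near background in both lines. Of 33 epithelial markers, 4 rose (12.1%, beside 11.9% of all genes): the phosphatase Ptprf by 4.18 (standard error 0.10), the plakophilins Pkp1 (0.91, standard error 0.28) and Pkp3 (0.74, standard error 0.13), and the keratin Krt15 (0.59, standard error 0.11), which was near background in both lines. Cdh1, Krt8 and Krt18, which define epithelium, were near background in both lines. The call of Pkp1 was lost without any of 4 of the arrays and that of Krt15 without any of 3, STAT3-C replicate 1 among them for both.

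Markers of other cells were checked in the same way. Of 17 macrophage and leukocyte markers, 4 rose (23.5%, beside 11.9% of all genes), and 11 were near background in both lines. Those that rose were Cd14, Lyz2 (1.95, standard error 0.14), Coro1a (1.39, standard error 0.14) and Cd68 (1.14, standard error 0.25). The summed linear level of the macrophage and leukocyte list was 1558 to 1672 in control and 2746 to 3420 in STAT3-C arrays. That of the epithelial list also rose, from 3034 to 3529 in control to 4480 to 4882 in STAT3-C arrays. Ptprc, the common leukocyte antigen, Itgam and Adgre1 were near background in both lines. Cd14 and Lyz2 are also members of the acute-phase and innate defense list. One of 14 endothelial markers (Eng, 0.63, standard error 0.09) and 1 of 17 muscle markers (Des, 1.05, standard error 0.10) rose. These shares, 7.14% and 5.88%, lie below the 11.9% of all genes. The call of Eng was lost without STAT3-C replicate 1, where the difference was 0.58 and under 1.5-fold. The 9 hepatocyte markers had a median difference of 0.04, and Afp, made by the fetal liver, was switched on. Of 12 adipocyte markers, Fabp4 rose while the fat cell regulators Pparg and Cebpa fell by 1.32 (standard error 0.13) and 1.66 (standard error 0.14). Lpl fell by 1.03 (standard error 0.32, adjusted p = 0.0413), a call lost without any 1 of 5 of the arrays.

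Genes of adhesion and the cytoskeleton were called in both directions. Against the loss of Cdh11, 10 of 36 cadherins and protocadherins rose and only Cdh11 and the catenin Ctnnd1 fell. Of the 36, 25 were near background in control cells, where a fall can hardly be measured, and 21 in both lines. The beta protocadherins, cell surface molecules encoded side by side on chromosome 18, had 11 of 22 measured members higher, with a median difference of 0.58. Of all 458 genes of chromosome 18, 90 were higher. In its run from Ercc3 to Ndfip1, 24 of 52 genes above background in both lines were higher, with a median of 0.54. Whether the cluster rose apart from its chromosome was not tested. Pcdhb9 read 4.47, 4.69 and 4.01 in control and 10.04, 9.96 and 9.39 in STAT3-C cells (5.40, standard error 0.22), and Pcdhb7 rose by 4.43 (standard error 0.10). These genes are alike in sequence, so a probeset may read more than 1 of them. Among 30 integrin and focal adhesion genes, 6 rose and 5 fell, with differences from -1.71 to 4.31. Of genes above background in both lines, 16.4% were higher and 14.9% lower, so these counts do not set the list apart. The integrin chains Itgb8 (3.91, standard error 0.28), Itgb7 (2.92, standard error 0.14) and Itga6 (2.87, standard error 0.15) rose, as did Bcar3, a partner of the adhesion protein p130Cas (4.31, standard error 0.10). Of 39 actin and contractile genes, 14 fell and 6 rose. Acta2, the smooth muscle actin of myofibroblasts, read 13.13, 12.57 and 12.85 in control and 7.65, 7.64 and 7.64 in STAT3-C cells (-5.21, standard error 0.14), and the LIM protein Fhl1 fell by 5.48 (standard error 0.24).

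Among metabolic genes, those of hypoxia and glycolysis had the most higher calls. Under low oxygen the factor HIF-1 raises glucose uptake and glycolysis, and 20 of 37 hypoxia and glycolysis genes were higher and 2 lower in STAT3-C cells, with a median of 0.63. Car9, a carbonic anhydrase of the cell surface, read 5.48, 5.72 and 5.65 in control and 8.35, 9.52 and 7.34 in STAT3-C cells (2.78, standard error 0.45). Egln3, an oxygen sensor that marks HIF for decay, rose by 2.47 (standard error 0.24) and Ldhb, a subunit of lactate dehydrogenase, by 2.23 (standard error 0.23). The glucose carrier Slc2a1 rose by 1.29 (standard error 0.25), Pdk1, which keeps pyruvate out of mitochondria, by 1.59 (standard error 0.18), Bnip3, a mitophagy receptor, by 1.88 (standard error 0.23) and Hif1a by 0.65 (standard error 0.16). STAT3-C replicate 3 was the lowest of its line in 26 of the 37 genes. Without it, or without any other single array, 16 to 21 genes were higher. Adm, the vasodilator peptide adrenomedullin and itself a hypoxia gene, went against the list: it read 11.46, 11.68 and 11.35 in control and 6.24, 6.34 and 6.34 in STAT3-C cells (-5.19, standard error 0.11).

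The HIF core ACGTG stood in 22.5% of all promoters, and in 12 of the 18 hypoxia and glycolysis genes called higher that have a promoter in the table. It is shown in capitals in 2 of them.

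Egln3, chr12:54204079-54204123, minus strand: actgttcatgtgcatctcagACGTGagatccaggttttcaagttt
Bnip3, chr7:138909589-138909634, minus strand: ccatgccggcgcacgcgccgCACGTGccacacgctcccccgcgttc

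In Bnip3 the capitals hold 2 matches, 1 on each strand. Of 14 members of the list that were not called, 8 also hold the core.

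Of 46 mitochondrial respiratory chain genes, 15 rose, 1 fell and 30 were not called. Ndufa2, of complex I, read 10.42, 10.59 and 10.75 in control cells, all 3 below the lowest STAT3-C array at 11.91 (1.40, standard error 0.11), and Uqcrh, of complex III, rose by 1.13 (standard error 0.12). The coactivator Ppargc1a (1.36, standard error 0.20) was near background in both lines. Detoxifying genes had more higher than lower calls. The aryl hydrocarbon receptor, Ahr, which senses flat aromatic compounds, was switched on from 5.87, 5.92 and 5.92 to 11.37, 11.62 and 11.23 (5.50, standard error 0.11, adjusted p = 9.82e-08). Of its list of 9, 5 rose: Ahr, the target enzymes Cyp1b1 (6.87, 6.79 and 6.32 against 12.29, 12.09 and 12.04), Aldh3a1 (5.04, standard error 0.13) and Nqo1 (1.83, standard error 0.28), and the feedback enzyme Tiparp (0.98, standard error 0.10). Of 46 glutathione and NRF2 genes, 15 rose and 6 fell. Among those that rose were Mgst2 (4.78, standard error 0.11) and Pgd of the pentose phosphate route (1.74, standard error 0.12). Gsta3 (2.04, standard error 0.10) also rose but was near background in both lines.

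Amino acid genes moved the other way more often, with 14 of 36 lower and 9 higher. Slc7a5, the main carrier of large neutral amino acids, read 11.65, 11.63 and 11.64 in control and 9.55, 9.26 and 9.73 in STAT3-C cells (-2.12, standard error 0.13), and Ddit3, the stress factor CHOP, fell by 2.13 (standard error 0.31). Mthfd2, of mitochondrial folate metabolism, fell by 1.47 (standard error 0.19), within a nucleotide and folate list that had 7 of 38 lower and 6 higher. Lipid genes were balanced, with 8 of 50 higher and 9 lower, and Abca1, which exports cholesterol, rose by 1.73 (standard error 0.26). The heat shock protein Hsph1 fell by 1.98 (standard error 0.16), in a chaperone list with 7 of 34 lower and 6 higher. Of 22 circadian clock genes, 10 rose and 2 fell. The core activator Arntl (1.10, standard error 0.19) and the repressors Cry1 (1.31, standard error 0.14) and Per1 (1.31, standard error 0.20) rose. Rora, a nuclear receptor that drives Arntl, fell by 1.63 (standard error 0.19). The time of day at harvest is not given in the sources used here.

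Signals that pattern tissues showed losses in the WNT list, with 15 of 52 lower and 2 higher. Sfrp2, a secreted WNT antagonist, read 11.44, 11.14 and 11.61 in control and 4.71, 4.85 and 4.87 in STAT3-C cells (-6.59, standard error 0.13). Rspo2, which strengthens WNT signals, fell by 5.04 (standard error 0.22), the receptor Fzd1 by 3.40 (standard error 0.12) and the nuclear effector Tcf7l2 fell by 2.89 (standard error 0.11). These 4 are a ligand antagonist, an agonist, a receptor and an effector. The TGF-beta and BMP list had 13 of 47 higher and 8 lower. The ligand Bmp4 rose by 3.65 (standard error 0.22), the BMP target genes Id3 and Id2 by 3.52 (standard error 0.28) and 3.04 (standard error 0.24), and the antagonist Fst by 2.01 (standard error 0.17). Of 65 growth factors and receptor tyrosine kinases, 20 fell and 7 rose. Igfbp7, which binds insulin-like growth factor, fell by 6.23 (standard error 0.15) and Ptn, the growth factor pleiotrophin, by 4.98 (standard error 0.15), while Grb10, an imprinted adapter that dampens insulin signals, was switched on (4.79, standard error 0.12). Slit3 and Ntn1, secreted guidance proteins, changed by -3.68 (standard error 0.09) and -3.12 (standard error 0.10).

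Genes of positional and lineage identity fell more often than they rose. Hox genes record where along the body a cell came from, and 18 of 36 members of the Hox list fell and 3 rose, with a median of -0.57. By cluster, 7 of 9 measured Hoxb and 6 of 7 Hoxc genes fell, against 2 of 9 Hoxa and 2 of 8 Hoxd genes. Hoxc10 read 9.32, 9.09 and 9.35 in control and 4.99, 5.39 and 5.11 in STAT3-C cells (-4.09, standard error 0.13), Hoxc8 fell by 2.69 (standard error 0.17) and Hoxa9 by 2.39 (standard error 0.13). Their cofactor Meis2 rose by 2.61 (standard error 0.18). Of 68 mesenchymal and lineage transcription factors, 17 fell and 10 rose. Ebf1 fell by 3.72 (standard error 0.11) and Twist2 by 2.54 (standard error 0.11), while Foxd1 rose by 3.96 (standard error 0.17). Averaging all probesets of a gene left 11 of these factors lower in place of 17.

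Imprinted genes, which are read from 1 parental copy, had 13 of 47 lower and 4 higher. Beside Ndn (-6.30, standard error 0.13), the zinc finger gene Peg3 fell from 10.52, 9.58 and 10.05 to 4.88, 4.62 and 4.88 (-5.26, standard error 0.22) and Dlk1, a Notch-like regulator of fat cells, fell by 3.17 (standard error 0.20). Among 52 genes of DNA methylation and chromatin repression, 13 fell and 3 rose, with the methyl-CpG binding Mbd1 (-2.36, standard error 0.16), the remodeler Smarca2 (-1.50, standard error 0.19) and the deacetylase Hdac4 (-1.36, standard error 0.13) first. Dnmt1, the maintenance methyltransferase, differed by -0.20 (standard error 0.15) and was not called.

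Growth control genes showed no shared direction. Of 57 cell cycle genes, 9 rose and 8 fell. The clamp loader subunit Rfc4 rose by 1.66 (standard error 0.13) and cyclin D1, Ccnd1, by 1.20 (standard error 0.14), from 11.20, 11.38 and 11.71 to 12.52, 12.60 and 12.77. Cdc20, an activator of the anaphase-promoting complex, rose by 1.22 (standard error 0.32). Cenpa, the histone of centromeres, rose by 1.15 (standard error 0.31). Their calls were lost without any of 3 and of 4 of the arrays. Without STAT3-C replicate 1 or replicate 3 the count higher was 5, and without control replicate 3 it was 14; the count lower was 5 without STAT3-C replicate 1 or control replicate 3. Mki67, a proliferation marker, read 10.42, 8.47 and 10.67 in control and 10.19, 10.03 and 10.35 in STAT3-C cells and was not called. Of 37 p53 targets and cell cycle inhibitors, 6 rose and 8 fell. Besides Pmaip1, Perp (2.79, standard error 0.16) and Cdkn1a, the inhibitor p21 (1.33, standard error 0.09), rose, and Gadd45b fell by 1.68 (standard error 0.15). Of 55 ERK feedback and immediate-early genes, 10 rose and 10 fell, and the highest difference was 1.57. Etv5, Rgs2 and Dusp6, which are induced by or restrain ERK signals, fell by 2.87 (standard error 0.18), 1.81 (standard error 0.18) and 1.80 (standard error 0.21).

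Several families of secreted and surface proteins held strong rises. In the S100 and Ly6 list, which also holds other surface proteins such as the enzyme Bst1, 12 of 31 rose and 3 fell. Slurp1 and Bst1 came first, and the proteoglycan Gpc1 rose by 3.78 (standard error 0.12). Among 25 prostaglandin and eicosanoid genes, Alox5ap, which hands arachidonic acid to 5-lipoxygenase, rose from 5.57, 6.61 and 5.29 to 10.70, 10.85 and 10.40, and Ptgis, which makes prostacyclin, by 3.79 (standard error 0.12). The receptor Ptgfr fell by 3.68 (standard error 0.17). Of 39 aquaporins and ion channels, 7 rose and 1 fell, Kcnn4 rising by 2.41 (standard error 0.13) and the calcium channel Cacna1c changing by -2.95 (standard error 0.22). Of the iron genes, the ferritin receptor Scara5 rose by 4.27 (standard error 0.35) and Heph, a copper enzyme that oxidizes iron for export, by 3.26 (standard error 0.17). Agtr2, the type 2 angiotensin receptor, fell by 4.95 (standard error 0.41), from 7.62, 8.79 and 9.59 to near background.

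The v-Src cells give a second transfected line against which STAT3-C cells can be set without any control array. In that direct test 1291 genes (7.1%) were higher and 854 (4.69%) lower in STAT3-C than in v-Src cells. Among genes called against control, 953 were also called the same way against v-Src. Of these, 499 higher and 222 lower genes were not called between v-Src and control cells. Afp led the first group, with 4.61, 5.63 and 4.72 in control, a mean of 5.09 in v-Src and 10.04, 9.70 and 10.05 in STAT3-C cells. Serpinb1a, an inhibitor of neutrophil proteases, read 4.85, 5.44 and 4.99 in control and 9.44, 9.13 and 8.90 in STAT3-C cells. Scara5, Slc9b1 (a sodium-proton exchanger of sperm), Ptgis, Pnma5, Dppa4 (a gene of pluripotent cells) and Itgb4 (the integrin of hemidesmosomes) followed. The second group was led by Etv5, Col6a3, Igf2r, Dcn, Macrod1, Olfml3, Rgs2 and Dusp6. Igf2r, which clears insulin-like growth factor 2, read 9.98, 10.19 and 9.98 in control, a mean of 10.43 in v-Src and 7.56, 7.28 and 7.46 in STAT3-C cells.

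**Figure D4:**
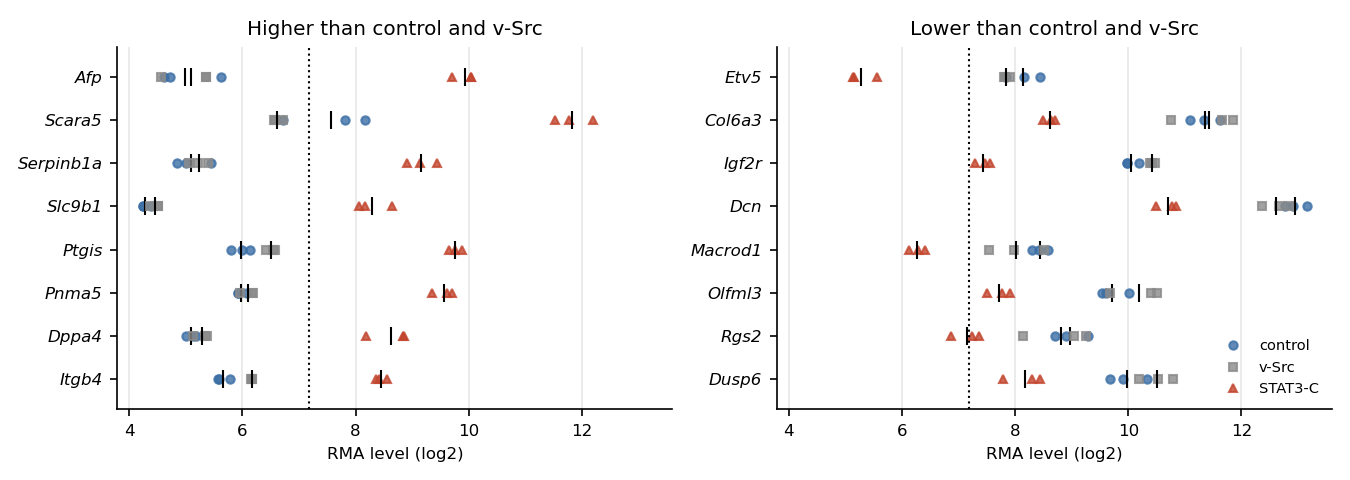
RMA level on the log2 scale (x axis) of the 8 most raised and the 8 most lowered genes against control among those also called the same way against v-Src and not called between v-Src and control; circles are control, squares v-Src and triangles STAT3-C arrays, 3 of each, with black ticks at the group means and the dotted line at 7.18. In all 16 genes the STAT3-C arrays lie apart from both other lines.

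Other strong changes against control were shared with v-Src cells or differed in size. Across probesets, STAT3-C arrays correlated with v-Src arrays at 0.971 to 0.977, and with control arrays at 0.944 to 0.948. Cdh11 differed from v-Src by -0.06 (standard error 0.09) and was not called, and Ifit1 by -0.63 (standard error 0.43, not called). In v-Src against control cells Cdh11 and Ifit1 differed by -7.54 and -4.48, and both were called lower. Socs3 was lower in STAT3-C than in v-Src cells (-2.21, standard error 0.22, adjusted p = 0.00103), as were Hp (-2.44, standard error 0.47) and Car9 (-3.13, standard error 0.57). Of the 37 hypoxia and glycolysis genes, 10 were lower and 0 higher in STAT3-C than in v-Src cells. Of all genes, 4.69% were lower and 7.1% higher. Mycn was also below its v-Src level (-4.17, standard error 0.19).

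Genes of a chromosome shifted together. This was examined in the 8456 genes on chromosomes 1 to 19 and X whose means were above background in both lines, of which 16.4% were higher and 14.9% lower. On chromosome 19, 41.8% were lower and 10.4% higher, and the median difference was -0.47. Chromosomes 1, 6, 8 and 10 had medians of -0.25, -0.35, -0.29 and -0.29, with 27.6% to 34.0% of their genes lower. Chromosome 3 had 34.0% higher and a median of 0.31, and chromosomes 12, 15, 14 and 18 had medians of 0.27, 0.25, 0.18 and 0.18. The 5 chromosomes with the lowest medians together held 665 lower and 118 higher genes of 2066, and the 5 with the highest medians held 444 higher and 102 lower of 1572. These 10 chromosomes were picked by their medians, so the counts describe them and test nothing.

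The shift was seen in each STAT3-C array. Over the 5 low chromosomes the medians of the single STAT3-C arrays against the control mean ran from -0.47 to -0.25, and over the 5 high ones from 0.15 to 0.37. Those of single control arrays ran from -0.09 to 0.10 over all 20 chromosomes. Each control array is part of the mean it was set against, so its range is narrowed and is no measure for the STAT3-C medians. In gene order it was uneven. On chromosome 19, the first run of 50 genes, from Ighmbp2 to Rnaseh2c, had a median of 0.22, and the last of 49 genes, from Nolc1 to Grk5, one of -0.91 with 29 genes lower and 2 higher. On chromosome 10, a run of 48 genes from Tcp11l2 to Tmtc3 had a median of -0.43, and the next, of 47 genes up to Tsfm, one of 0.25. Against v-Src cells the chromosome medians of STAT3-C cells lay between -0.12 and 0.26, the highest on chromosome 16. On the low chromosomes 1, 6, 8, 10 and 19 they were -0.07, -0.07, 0.06, 0.07 and -0.12, smaller than against control. On the high chromosomes 3, 12, 14, 15 and 18 they were 0.04, 0.17, 0.23, 0.06 and 0.11. DNA copy number was not measured in these files, and its part in the shift was not tested.

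**Figure D5:**
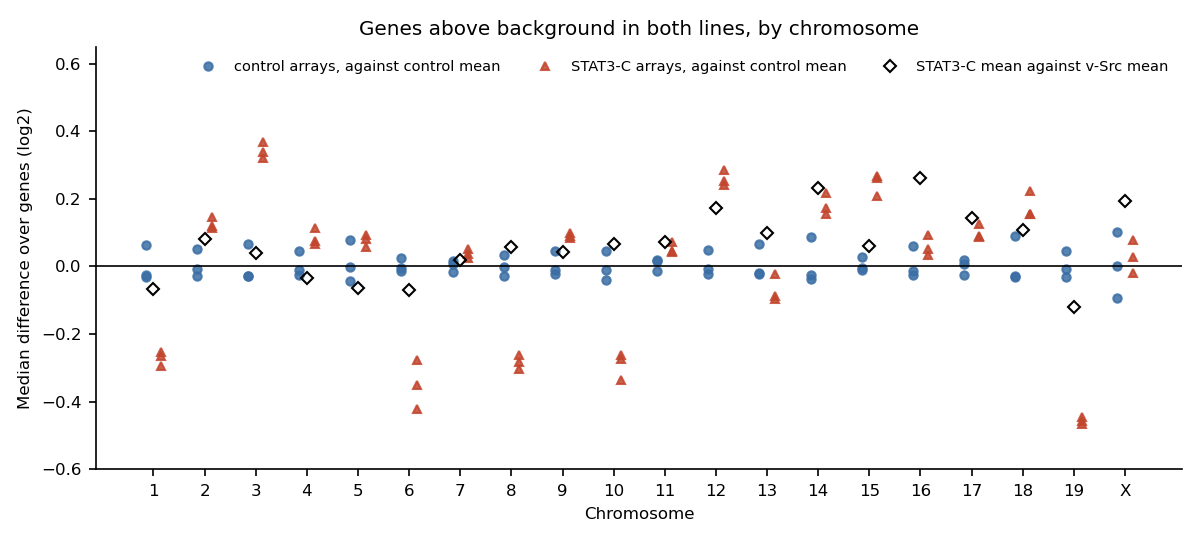
Median log2 difference (y axis) over genes above background in both lines, for each chromosome (x axis); circles are single control arrays and triangles single STAT3-C arrays, both against the mean of the control arrays, and open diamonds are STAT3-C against v-Src means. The triangles lie below -0.25 on chromosomes 1, 6, 8, 10 and 19 and above 0.15 on chromosomes 3, 12, 14, 15 and 18.

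To see what the shift does to the lists, each array was centred by chromosome, a choice made after the shift was seen. Then 2380 genes were higher and 1809 lower, 39 of 49 interferon-stimulated genes were lower and 17 of 37 hypoxia and glycolysis genes were higher. Of the 9 interferon-stimulated genes on the 5 low chromosomes 7 were lower, as were 32 of the 40 elsewhere. Of the 104 counts of higher or lower members, 2 for each list, 18 moved by over 1.5 times, most of them in lists with few calls: WNT genes went from 2 to 5 higher, prostaglandin genes from 4 to 8, adipocyte markers from 1 to 4 and neural markers from 2 to 4, and p53 targets from 8 to 4 lower. The calls of Eng, Krt15, Lpl, Mbtps1, Nfkb2, Rarres2 and Ywhaz were lost.

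Some genes gave a different answer by probeset. Of 9010 genes with 2 or more probesets, 344 had all of them higher and 269 all lower, and 117 had probesets called in opposite directions. The widest gap was in Thoc1, of the mRNA export complex: 1420042_at read 3.83, 4.27 and 4.56 in control and 8.65, 8.79 and 7.36 in STAT3-C cells, while 1424642_at read 8.90, 8.87 and 9.28 against 8.53, 8.14 and 8.45. The lower call of Thoc1 at the second probeset was lost without STAT3-C replicate 2 (-0.52) or control replicate 3 (-0.51). Tcp11x2, Asph, Vma21, Mbtps1 and Pes1 followed, with gaps over 2 log2 units. For these genes the direction depends on the probeset chosen.

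The remaining lists held fewer or weaker calls. Ribosomal protein genes had 4 of 36 higher and 2 lower, with Rpl37 up by 1.06 (standard error 0.10). Of 12 housekeeping genes 3 were called, among them Polr2a, the largest subunit of RNA polymerase II, which fell by 1.90 (standard error 0.15). Retinoid genes had 5 of 27 lower, with the carrier Crabp1 among them (-3.38, standard error 0.31). Notch genes had 4 of 26 higher and 3 lower, and the ligand Jag1 rose by 2.04 (standard error 0.32). Of the adrenomedullin, angiotensin and endothelin genes 5 of 24 rose and 3 fell, and Ramp3, a coreceptor for adrenomedullin, rose by 2.47 (standard error 0.17). Of 28 liver and fetal secretory genes 2 rose and 3 fell, and Igf2, the fetal insulin-like growth factor, fell by 2.03 (standard error 0.18). The ephrin and semaphorin list had 6 of 51 higher and 10 lower, with Efna1 up by 1.92 (standard error 0.14), and 3 of 21 neural markers were called, Uchl1 rising most (2.22, standard error 0.20) while near background in both lines. The other 2 neural calls did not hold: that of Gap43 was lost without STAT3-C replicate 1 (0.67) or control replicate 1 (0.55), and that of Ncam1 without any 1 of 4 arrays, STAT3-C replicates 1 and 3 and control replicates 1 and 3 (-0.60 to -0.78). Among the other calls counted here, that of Aldh1a7, a retinoid gene, was lost without STAT3-C replicate 1 or 3 (-2.15 and -1.91), and that of Notch3 without STAT3-C replicate 1 or control replicate 1 or 2 (0.81 to 0.84). That of F3, in the liver and fetal secretory list, was lost without any 1 array other than control replicate 1 (-0.57 to -0.90).

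Passages of a line also differed from each other. In STAT3-C cells the widest spread was in Aldh1a1, the retinaldehyde dehydrogenase, which read 7.84, 9.11 and 6.79, against 11.66, 12.36 and 11.96 in control cells. Pdk4, a kinase that shuts pyruvate out of mitochondria, read 8.97, 9.40 and 7.29 against 4.71, 4.92 and 4.80, and the chemokine Ccl8 read 9.94, 8.62 and 7.71 and was not called. In control cells the widest spread was in genes of the interferon response (Ifi44l, Cxcl11, Mx1 and Ifi207) and in Cenpf, a mitotic gene that read 9.59, 7.58 and 10.09. Ifi44l, at 6.03, 9.16 and 7.13 in control and 5.68, 5.49 and 5.55 in STAT3-C cells, was not called because of that spread (adjusted p = 0.0648).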

How the data were processed

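The authors made the deposited log2 values by Robust Multichip Average (RMA) from Affymetrix mouse genome arrays, in a table with a column for every array. Per the methods, RMA was run in 2 sets, each of a transfected line with the controls. The table does not say from which set its control columns come. Crip2 and Mgst2 were 21.96-fold and 27.43-fold higher in STAT3-C than in control cells here, which differs from the folds the paper prints. Whether the columns come from these 2 sets at all is therefore not known. If they do, set and line cannot be told apart in the direct comparison. The deposited scale was kept, except in the alternatives. Arrays give no read depth, and their number limits the precision.

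The 64 manufacturer's control probesets were left out. STAT3-C was compared with control, and with v-Src, by limma 3.58.1 in R 4.3.3 (lmFit and eBayes, 6 arrays a fit, all 45037 probesets, no filter, Benjamini-Hochberg adjustment). Of the probesets, 34945 carry 1 gene symbol, 932 several and 9160 none, by platform annotation, and 34741 were matched by gene ID to RefSeq genes (GRCm38.p6), used for names, chromosomes and gene order. Each gene was read at its brightest probeset (mean of the 6 arrays). Promoters are those of the RefSeq table for 14452 of the genes. The script was tested on simulated data.

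The members and lists were chosen with earlier results of these data known. Genes are named by rule: Stat3; the 15 highest and 15 lowest changes; the 8 highest and 8 lowest moderated t; up to 4 called members a list; the 8 highest and 8 lowest also called the same way against v-Src and not called between v-Src and control; the 6 with the widest gap between probesets; and the 5 with the widest spread in each line. Arntl, Bnip3, Bst2, Cdh1, Col1a1, Col3a1, Ctnnd1, Dnmt1, Hif1a, Ifit3, Ifnar1, Ifnar2, Ifngr1, Il6st, Irf1, Irf7, Irf9, Krt8, Krt18, Mki67, Pdgfra, Pdk1, Ptprc, Itgam, Adgre1, Slc2a1, Socs3, Vim and the genes at the ends of runs were chosen after their values were seen. Alternatives were all 9 arrays in 1 fit, other scalings, filters and thresholds, SAM (the study's test, 20 groupings, q under 5%), a replicate block, leaving out each array, the mean of a gene's probesets and centring by chromosome. Trp53 is not analysed here. Figures were drawn with matplotlib.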

Additional observations from a re-analysis of the deposited data

Results flagged for a closer look

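Genes whose level in STAT3-C cells differed both from control and from v-Src cells, while v-Src and control were not called apart, were looked at again for the size of the difference between both transfected lines. It was tested directly by limma over 3 STAT3-C and 3 v-Src arrays. On the log2 scale, STAT3-C minus v-Src was 5.21 for Scara5, 4.84 for Afp, 3.93 for Serpinb1a, 3.83 for Slc9b1, 3.45 for Pnma5, 3.35 for Dppa4, 3.26 for Ptgis and 2.28 for Itgb4. It was -2.99 for Igf2r, -2.81 for Col6a3, -2.57 for Etv5, -2.47 for Olfml3, -2.33 for Dusp6, -1.91 for Dcn, -1.74 for Macrod1 and -1.66 for Rgs2. In all 16 genes the 3 STAT3-C arrays lie on 1 side of all v-Src and control arrays. These genes were picked for being called in both comparisons, so the sizes are a description.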

How the results depend on the processing

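Counts of calls moved most with the fold threshold. Requiring 2-fold gave 1955 higher and 1758 lower probesets against control (974 and 884 genes), and no fold threshold gave 7302 and 6049 (3532 and 2842 genes). Against v-Src, 2399 probesets were higher and 2246 lower, against 771 and 725 when 2-fold was required, 4546 and 4578 with no fold threshold, and 1466 lower at an adjusted p under 0.01. Which direction prevails depends on the scaling: median centring gave 3884 higher and 4282 lower and quantile normalization 4014 and 4102. SAM called 4472 higher and 3988 lower. Leaving out 1 array gave 3874 to 4458 probesets higher and 3496 to 4197 lower, and 1934 to 2213 and 1770 to 1984 genes. Against v-Src it gave 1800 to 2481 higher and 1769 to 2358 lower. Over all probesets, deviations of same-numbered arrays correlated at only -0.09, 0.06 and 0.04, so the numbers were not taken as pairs, although cell cycle genes had replicate 2 lowest and replicate 3 highest in both lines. The replicate block gave 4447 higher and 3964 lower probesets. Of 212 named genes, 178 kept direction and side of the threshold under every alternative that could be computed for them, and 3 reversed with the mean of all their probesets: Thoc1 (1.02), Mbtps1 (0.58) and Pes1 (-0.54), whose probesets disagree. The limits are 1 line per condition, 3 passages, and levels near background, which hide the size of the largest changes.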

Other observations

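Cell cycle genes varied between passages in both lines. In control cells replicate 2 was the lowest array in 51 of 57 cell cycle genes and replicate 3 the highest in 47, and in STAT3-C cells replicate 2 was the lowest in 46 and replicate 3 the highest in 47. The median deviation from the mean of the line was -0.27 and 0.25 for control and -0.18 and 0.19 for STAT3-C replicates 2 and 3. Hypoxia and glycolysis genes differed between passages in STAT3-C cells, where replicate 2 was the highest array in 23 and replicate 3 the lowest in 26 of 37 genes. In the interferon-stimulated genes STAT3-C replicate 1 was the highest of its line in 35 of 49.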
